A study of Danio rerio with 2 samples.

Results

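The claudin family was taken as every gene whose symbol begins with cldn, which gave 34 of the 27056 symbols in the count tables. The genes were read in cells of the dissected gut of zebrafish larvae aged 5 dpf (days post fertilization), in 1 il26KO library and 1 WT library of droplet 3′ single-cell RNA sequencing. The il26KO larvae were deficient for il26, the gene of the cytokine IL-26, made with CRISPR/Cas9, and the WT larvae were not edited. Each library pooled 50 guts, dissociated in 5 tubes of 10. Clutchmate parents of each genotype were kept in separate tanks, so genotype, tank and library cannot be told apart. With 1 library per genotype there is no replicate check and no test, and all intervals are exact 95% intervals that cover counting error only. All 34 claudins had at least 1 UMI (unique molecular identifier, 1 for each captured RNA molecule) in the cells kept, and 30 reached the minimum of 20 UMIs over both libraries that was set for reading a ratio.

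Claudins are small membrane proteins that join neighbouring epithelial or endothelial cells at tight junctions. Some seal the space between cells and others form pores for ions or water, so that the set of claudins in a cell layer shapes its permeability. In the gut they keep the lumen apart from the tissue, in ducts they take part in the movement of salt and water, and in vessels they close the wall. Zebrafish have many claudin genes, some in rows of neighbouring copies and some named by a letter only.

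The il26KO library had 3841 kept cells with a median of 14257 UMIs, and the WT library 5122 kept cells with a median of 10214.5 UMIs. The il26 transcript had 0 UMIs in the il26KO library and 1 UMI in the WT library, so it could not check the genotype. Of the 8963 kept barcodes, 10 occurred in both libraries. Cells fell into 31 clusters, made without any claudin or other junction gene, and 30 clusters were named in 15 classes by marker lists. Even so, cldnb and cldnh were among the 10 leading genes of clusters of the epidermal-like and enteroendocrine-like classes. Levels are given as CPM, the UMIs of a gene divided by all UMIs, both summed over the cells of a class in 1 library, times 1e6, and since 1 UMI stands for 1 RNA molecule of any length, levels of different genes were set side by side without a length term. Droplets also hold free RNA. Barcodes of 1 to 100 UMIs, taken as empty droplets, held 1806 CPM of summed claudins in il26KO and 1803 CPM in WT. A claudin was counted as above background in a class where its interval lay above that of the empty droplets in both libraries, which held for 66 pairs of claudin and class.

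Each epithelium of the sample had its own leading claudins, in both libraries. The gut epithelial classes were led by cldn15la, the epidermal-like cells by cldnh, the endothelial-like cells by cldn5b and the neuron-like cells by cldn12, while in the duct-like cells several claudins stood at similar levels. Among the 18 claudins with at least 500 UMIs, 16 were highest in the same class in both libraries. Of the 30 claudins with at least 20 UMIs, 11 were highest in the epidermal-like class, 5 in the duct-like class, 5 in the neuron-like class, 3 in the enteroendocrine-like class and 3 in the endothelial-like class. The lysosome-rich enterocyte-like, mesenchymal-like and leukocyte-like classes each had 1. Some of these ranks rest on levels that were not above background in both libraries. This held for cldni, cldn1, cldna and cldnf of the epidermal-like class and for cldnd1a, cldnd1b and cldn19 of the neuron-like class. It also held for cldng (duct-like), cldn10a (enteroendocrine-like) and cldn10b (leukocyte-like). By the mean level of both libraries, none of the 30 was highest in anterior enterocyte-like, ileal enterocyte-like, best4 enterocyte-like, goblet-like or epithelial progenitor-like cells. The anterior enterocyte-like class is the gut epithelial class with the most cells.

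**Figure D1:**
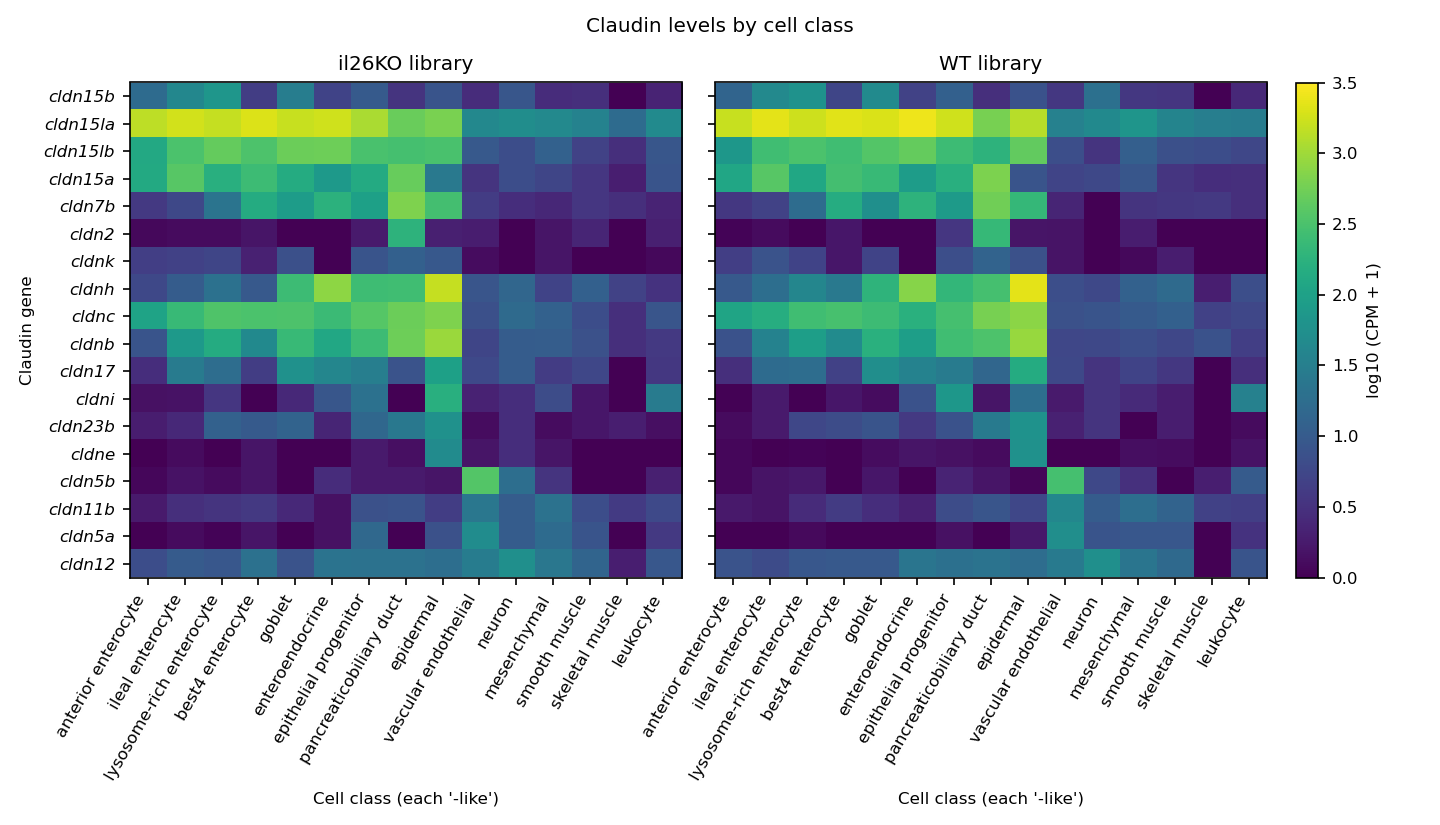
Levels of the 18 claudins with at least 500 UMIs in the kept cells (rows) in 15 cell classes (columns), as log10 of CPM + 1, in the il26KO library on the left and the WT library on the right. Rows are ordered by the class of the highest level; cldn15la is bright across the 7 gut epithelial classes, cldn5b is brightest in the endothelial-like class and cldn2 in the duct-like class, in both libraries.

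In the gut epithelium cldn15la was the main claudin. This claudin 15-like gene is used in zebrafish as a reporter of gut epithelial cells, and the study used that reporter. It was highest in best4 enterocyte-like cells (2035 CPM in il26KO, 2216 CPM in WT), enteroendocrine-like cells (1768 CPM in il26KO, 2538 CPM in WT) and ileal enterocyte-like cells (1841 CPM in il26KO, 2276 CPM in WT). Goblet-like cells (1605 CPM in il26KO, 2034 CPM in WT) and lysosome-rich enterocyte-like cells (1559 CPM in il26KO, 1709 CPM in WT) were between these and the anterior enterocyte-like cells (1423 CPM in il26KO, 1605 CPM in WT). Epithelial progenitor-like cells were lowest in il26KO but not in WT (1129 CPM in il26KO, 1751 CPM in WT). All 7 classes lay above the empty droplets, which held 827 CPM in il26KO and 916 CPM in WT. In the anterior enterocyte-like class cldn15la made up 77.4% of claudin UMIs in il26KO and 82.5% in WT. In the progenitor-like class it made up 41.97% in il26KO and 55.2% in WT.

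The share of cells with the transcript showed the same contrast. With each cell thinned to 1000 UMIs, 64.7% of il26KO cells and 73.1% of WT cells of the anterior enterocyte-like class had a cldn15la UMI. In endothelial-like cells, which should lack it, 6.38% of il26KO cells and 3.65% of WT cells had one, which is read as background. Without thinning the shares were 94.98% of il26KO cells and 97.5% of WT cells in the anterior enterocyte-like class, at median depths of 48419.5 UMIs in il26KO and 35032 in WT, and 29.8% of il26KO cells and 21.6% of WT cells in the endothelial-like class, at 7140.5 UMIs in il26KO and 5476 in WT.

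Other claudins told the gut epithelial classes apart. The paralog cldn15lb was highest in enteroendocrine-like (529.8 CPM in il26KO, 465 CPM in WT), goblet-like (509 CPM in il26KO, 360.3 CPM in WT) and lysosome-rich enterocyte-like cells (477 CPM in il26KO, 326 CPM in WT). In anterior enterocyte-like cells (128 CPM in il26KO, 69.2 CPM in WT) it did not lie above the empty droplets (157 CPM in il26KO and 125 CPM in WT). A further claudin 15 gene, cldn15a, was highest within the gut epithelium in ileal enterocyte-like cells (391 CPM in il26KO, 389.9 CPM in WT), next in best4 enterocyte-like cells (249 CPM in il26KO, 286 CPM in WT), and below the other gut epithelial classes in enteroendocrine-like cells (73.9 CPM in il26KO, 84.7 CPM in WT). Claudin 15 forms cation pores in the mouse intestine and serves in lumen formation in the zebrafish gut. The last of the group, cldn15b, was above background in lysosome-rich enterocyte-like cells (67.8 CPM in il26KO, 59.0 CPM in WT), which take up protein from the lumen, and in ileal enterocyte-like cells (41.1 CPM in il26KO, 43.4 CPM in WT), and in no other class.

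Claudins named for other groups were also present. The gene cldnc, which RefSeq names as a claudin 3, ranged over the gut epithelial classes from 107 to 377 CPM in il26KO and from 108 to 299 CPM in WT, highest in progenitor-like cells in il26KO and in best4 enterocyte-like cells in WT. The empty droplets held 177 CPM of cldnc in il26KO and 161 CPM in WT. Anterior enterocyte-like cells lay below them in both libraries, and ileal enterocyte-like cells in WT (149 CPM). Claudin 3 is a sealing claudin in mammals. Enteroendocrine-like cells, the hormone cells of the gut, had the most cldnh of the gut epithelium (811 CPM in il26KO, 729 CPM in WT). Within them it was higher in the cluster led by adcyap1a and penka (1645 CPM in il26KO, 1204 CPM in WT) than in the cluster led by scg3 and rem2 (653 CPM in il26KO, 531 CPM in WT). Best4 enterocyte-like cells, a cell type rich in ion channels, had cldn7b (142 CPM in il26KO, 145 CPM in WT), as did enteroendocrine-like cells (174 CPM in il26KO, 181 CPM in WT), whereas anterior enterocyte-like cells had almost none (2.81 CPM in il26KO, 2.68 CPM in WT). In mammals claudin 7 lies along the sides of epithelial cells and binds EpCAM.

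Between the genotypes, cldn15la was lower and cldn15lb higher in il26KO in each of the 7 gut epithelial classes. For cldn15la the log2 difference ran from -0.63 in progenitor-like cells to -0.12 in best4 enterocyte-like cells, with a median of -0.31. For cldn15lb it ran from 0.19 in enteroendocrine-like cells to 0.89 in anterior enterocyte-like cells, with a median of 0.34. The value of 0.89 comes from a class where cldn15lb did not lie above the empty droplets. None of the differences of either claudin reached 2-fold. Of the 8 claudins with at least 20 UMIs in each of the 7 classes, these were the 2 with a single sign. Over all 7067 genes with that many UMIs, 3.30% were lower in il26KO in all 7 classes and 6.45% were higher, so a common sign is itself not rare when the same pair of libraries is read in 7 classes. By cluster, cldn15la was lower in 12 of 12 gut epithelial clusters and cldn15lb higher in 12 of 12. The empty droplets differed in the same directions, by a log2 of -0.15 for cldn15la and 0.33 for cldn15lb, and the part of free RNA in the class values was not tested. With cells thinned to 1000 UMIs, cldn15la was still lower in 7 of 7 classes and cldn15lb higher in 5 of 7. With at least 1000 detected genes per cell the numbers were 7 and 6. With doublets kept both were 6 of the 6 classes named then, when no cluster was named goblet-like. After scaling to the median ratio of all genes each kept its sign in 7 of 7.

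**Figure D2:**
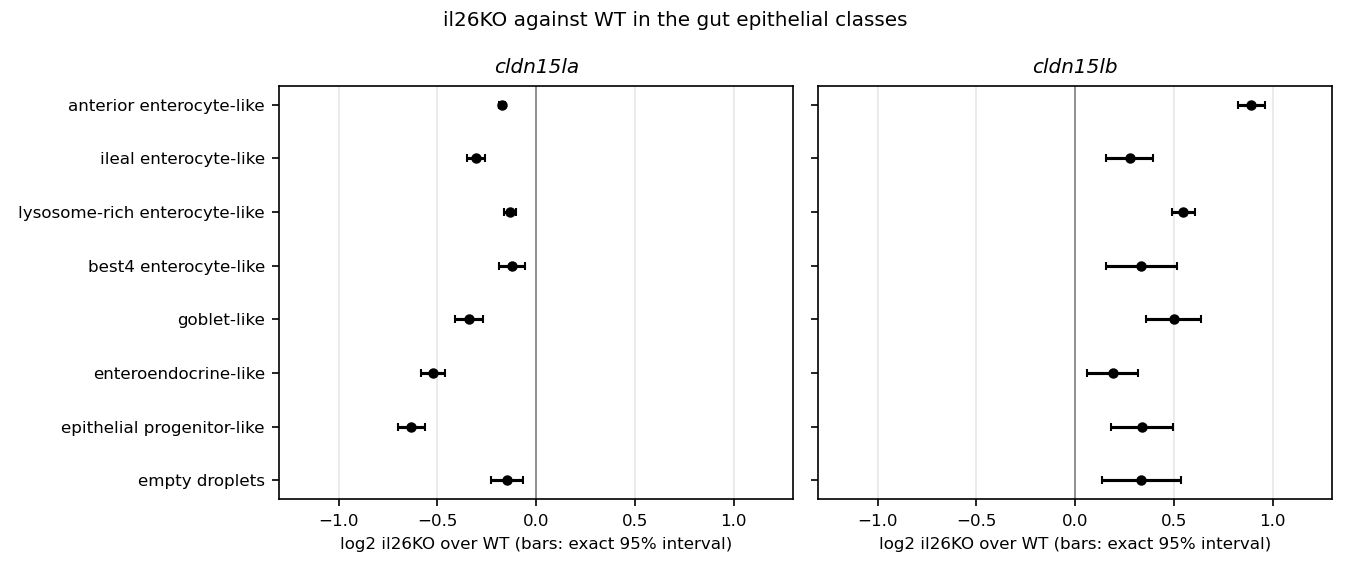
log2 of il26KO over WT for cldn15la (left) and cldn15lb (right) in the 7 gut epithelial classes and the empty droplets, with 1 UMI added to each count; bars are exact 95% intervals for counting error. All 7 class values lie below 0 for cldn15la and above 0 for cldn15lb, and the empty droplets lie on the same side as the classes.

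Read against each other within 1 class, the pair needs no scaling between libraries. The cldn15lb share of the UMIs of cldn15la and cldn15lb was larger in il26KO in each gut epithelial class. That direction follows from the opposite signs given above, since the UMIs are the same. In anterior enterocyte-like cells, where cldn15lb did not lie above the empty droplets, the share was 8.28% in il26KO against 4.13% in WT. The exact binomial intervals were 8.07 to 8.49% in il26KO and 3.97 to 4.30% in WT. In progenitor-like cells the share was 21.6% in il26KO against 12.3% in WT. In lysosome-rich enterocyte-like cells it was 23.4% in il26KO against 16.0% in WT, and in ileal enterocyte-like cells 14.9% in il26KO against 10.5% in WT. The empty droplets gave 16.0% in il26KO against 12% in WT.

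Duct-like cells of the pancreas and biliary tree, 78 in il26KO and 169 in WT, had no single leading claudin. In il26KO the highest was cldn7b (654 CPM in il26KO, 550.5 CPM in WT) and in WT cldn15a (483 CPM in il26KO, 649 CPM in WT), with cldnb (539 CPM in il26KO, 335 CPM in WT), cldnc (515 CPM in il26KO, 596 CPM in WT) and cldn15la (499 CPM in il26KO, 612 CPM in WT) close to them. Of these, cldn15la lay below the empty droplets (827 CPM in il26KO and 916 CPM in WT). The class also held cldn2, a cation pore in leaky epithelia of mammals, at 183 CPM in il26KO, 222 CPM in WT. The class took in 92.5% of the cldn2 UMIs of il26KO and 96.7% of those of WT. A low level of cldnk, known in zebrafish from myelinating glia, was above background here as well (28 UMIs in il26KO and 42 in WT) and in no other class.

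The class joined 2 clusters with different claudins. Cluster 23, led by zgc:193726 and si:dkey-96g2.1 with 39 il26KO and 83 WT cells, held cldn2 (386 CPM in il26KO, 332 CPM in WT), cldn15a (764 CPM in il26KO, 978 CPM in WT) and cldn15lb (547 CPM in il26KO, 229 CPM in WT) and little cldn15la (39.8 CPM in il26KO, 43.3 CPM in WT). Cluster 22, led by tcnba and anxa4 with 39 il26KO and 86 WT cells, held mainly cldn15la (885 CPM in il26KO, 1464 CPM in WT), less cldn15a (247 CPM in il26KO, 157 CPM in WT) and little cldn2 (11.4 CPM in il26KO, 59.08 CPM in WT). In cluster 23 cldn15lb made up 93.2% in il26KO against 84.1% in WT of the cldn15la and cldn15lb pair, and in cluster 22 8.81% in il26KO against 7.39% in WT. Between the genotypes, none of the 13 claudins measured in the whole class passed 2-fold, as 10.0% of all genes measured there did. The nearest were cldn17, lower in il26KO (18 UMIs in il26KO and 47 in WT, log2 -0.88, interval -1.80 to -0.12), and cldn15lb (log2 0.69, interval 0.53 to 0.84) and cldnb (log2 0.69, interval 0.58 to 0.80), higher in il26KO. In cluster 23 alone cldn15lb was past 2-fold (log2 1.25, interval 1.08 to 1.43).

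The epidermal-like class had the most claudin RNA, 4858 CPM summed over the family in il26KO and 6309 CPM in WT. It was led by cldnh (1544 CPM in il26KO, 2302 CPM in WT), cldnb (926 CPM in il26KO, 899 CPM in WT), whose reporter marks the migrating lateral line of zebrafish, and cldnc (672 CPM in il26KO, 771 CPM in WT), with cldn15la at 629 CPM in il26KO, 1336 CPM in WT. Of the cldne UMIs, 97.9% in il26KO and 98.2% in WT fell here, and cldn17 (96.8 CPM in il26KO, 141 CPM in WT), cldn23b (58.6 CPM in il26KO, 59.05 CPM in WT) and cldn23a (12.2 CPM in il26KO, 6.12 CPM in WT) were above background as well. The 3 clusters of the class were unequal between libraries: the largest number of il26KO cells lay in cluster 12 (169 of 436) and the largest number of WT cells in cluster 8 (260 of 595). Cluster 8, led by icn and gstp2, held the most cldnb (1243 CPM in il26KO, 1202 CPM in WT) and cldne (96.3 CPM in il26KO, 134 CPM in WT). Cluster 11, led by cnfn, with hoxb13a, a gene of the hind end of the body, among its leading genes, held the most cldnh (3379 CPM in il26KO, 3431 CPM in WT), against 935 CPM in il26KO, 1569.6 CPM in WT in cluster 8 and 406 CPM in il26KO, 629.7 CPM in WT in cluster 12. Cluster 12, led by krt91, held the most cldn15la of the 3 (1276 CPM in il26KO, 1692 CPM in WT). Its epidermal markers summed to 15193 CPM in il26KO and 21752 CPM in WT, and its ileal enterocyte markers, which include krt92, to 14487 CPM in il26KO and 13578 CPM in WT, so the epidermal-like name is least secure for this cluster. The name is not secure for cluster 11 either. There the epidermal markers summed to 31342 CPM in il26KO and 35639 CPM in WT. Its ileal enterocyte markers summed to 11546 CPM in il26KO and 13588 CPM in WT. The 5 cloacal epithelium markers, which include hoxb13a, summed to 1067 CPM in il26KO and 982 CPM in WT in cluster 11, with none at 0.

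**Figure D3:**
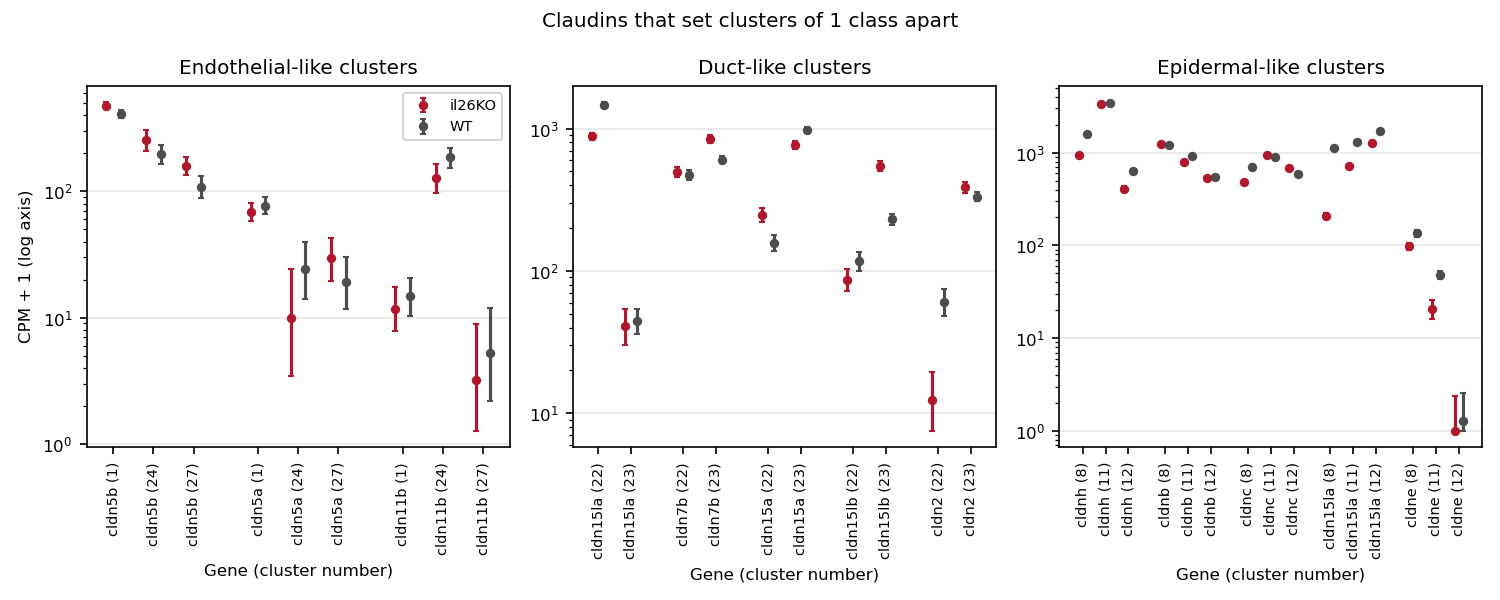
Claudins in the clusters of the endothelial-like (left), duct-like (middle) and epidermal-like (right) classes, as CPM + 1 on a log axis, il26KO in red to the left of WT in grey; cluster numbers are in brackets and bars are exact Poisson 95% intervals. In both libraries cldn11b is highest in cluster 24, cldn2 in cluster 23 and cldne in cluster 8.

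Vascular endothelial-like cells had the claudin 5 genes, which close the wall of vessels in mammals. Their main claudin was cldn5b (359.9 CPM in il26KO, 297 CPM in WT), with 96.2% of its il26KO and 93.6% of its WT UMIs. The other copy, cldn5a, was lower (49.4 CPM in il26KO, 52.6 CPM in WT) and was also above background in mesenchymal-like cells (15.8 CPM in il26KO, 7.89 CPM in WT). A UMI of cldn5b was found in 71.4% of il26KO cells and 59.9% of WT cells of the class, and in 26.7% of il26KO cells and 22.4% of WT cells after thinning. Of the clusters, the largest, led by plvapb (cluster 1), had the most cldn5b (474 CPM in il26KO, 409 CPM in WT), ahead of cluster 24, led by marcksl1b and with the lymphatic and venous gene flt4 among its leading genes (252 CPM in il26KO, 195 CPM in WT), and of cluster 27, led by nanos1 (158 CPM in il26KO, 107 CPM in WT). Another order held for cldn11b, one of the zebrafish copies of the myelin and testis claudin of mammals. It was highest in cluster 24 (126 CPM in il26KO, 184 CPM in WT), far above cluster 1 (10.8 CPM in il26KO, 13.8 CPM in WT) and cluster 27 (2.19 CPM in il26KO, 4.28 CPM in WT).

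Between the genotypes no claudin of the endothelial-like cells passed 2-fold, as 5.60% of all genes measured in the class did. The log2 difference was 0.28 for cldn5b (interval 0.16 to 0.40), -0.088 for cldn5a (interval -0.40 to 0.21) and -0.79 for cldn11b (interval -1.20 to -0.40). The last rests on 80 UMIs in il26KO and 153 in WT. The interval of cldn5a took in 0, so no difference was detectable at this depth.

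Neuron-like, mesenchymal-like, muscle-like and leukocyte-like cells had far less claudin RNA, between 36.7 and 272 CPM over the family in il26KO and between 59.23 and 230.3 CPM in WT, all below the empty droplets. A few members nevertheless stood above background. Among them cldn12, a widely made claudin of mammals, was highest in neuron-like cells (53.6 CPM in il26KO, 54.1 CPM in WT) and was also above background in endothelial-like (28.8 CPM in il26KO, 26.4 CPM in WT), mesenchymal-like (23.4 CPM in il26KO, 21.8 CPM in WT), enteroendocrine-like, duct-like and epidermal-like cells. The other claudin 11 gene, cldn11a, was above background in neuron-like (19 UMIs in il26KO and 8 in WT), smooth muscle-like (40 UMIs in il26KO and 33 in WT), mesenchymal-like and enteroendocrine-like cells. Mesenchymal-like cells also had cldn11b (20.1 CPM in il26KO, 17.4 CPM in WT) and cldn19 (9.63 CPM in il26KO, 5.32 CPM in WT), a claudin of kidney and nerve sheath in mammals, and cldn7a (22 UMIs in il26KO and 22 in WT). Leukocyte-like cells had cldni at 27.6 CPM in il26KO, 33.2 CPM in WT, in 42 of 202 il26KO and 53 of 224 WT cells. That did not lie above the empty droplets in both libraries (18.7 CPM in il26KO and 14.5 CPM in WT), although 1 of its clusters, led by runx3 and ccr9a (cluster 21), had 44.2 CPM in il26KO, 77.8 CPM in WT.

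At the low end, 4 claudins had fewer than 20 UMIs and could not be placed in any class. These were cldn10l2 (6 UMIs in il26KO and 4 in WT), cldnd (2 in il26KO and 5 in WT), cldnj (0 in il26KO and 4 in WT) and cldn18 (0 in il26KO and 1 in WT). A further 3, cldn10a, cldn10b and cldng, had 20 to 46 UMIs and lay above background in no class. In mammals claudin 18 belongs to stomach and lung, organs that zebrafish lack. The claudin domain genes cldnd1a and cldnd1b, more distant relatives that the naming rule takes in, were above background in no class.

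Summed over the family, claudins stood at 2232 CPM over all kept cells in il26KO and 2609 CPM in WT, a log2 difference of -0.23 (interval -0.23 to -0.22). By class the largest difference among the epithelia was in epidermal-like cells (log2 -0.38). Progenitor-like cells had 2690.3 CPM in il26KO and 3174 CPM in WT (log2 -0.24), ileal enterocyte-like cells a log2 of -0.12, and anterior enterocyte-like cells -0.081. Lysosome-rich enterocyte-like cells lay the other way (2837 CPM in il26KO and 2669 CPM in WT, log2 0.088). All of these are small beside the differences between classes. With every cell weighted equally the value over all kept cells was -0.027, and after thinning -0.046. The median log2 of all measured genes was itself shifted by 0.19 in anterior enterocyte-like cells, by 0.14 in epidermal-like and in goblet-like cells, by 0.12 in duct-like and in smooth muscle-like cells and by -0.23 in skeletal muscle-like cells. In anterior enterocyte-like cells the family sum turned to 0.053 after thinning and was -0.28 after scaling to the median ratio. In sums of this kind fewer cells with a transcript and less RNA per cell cannot be told apart.

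**Figure D4:**
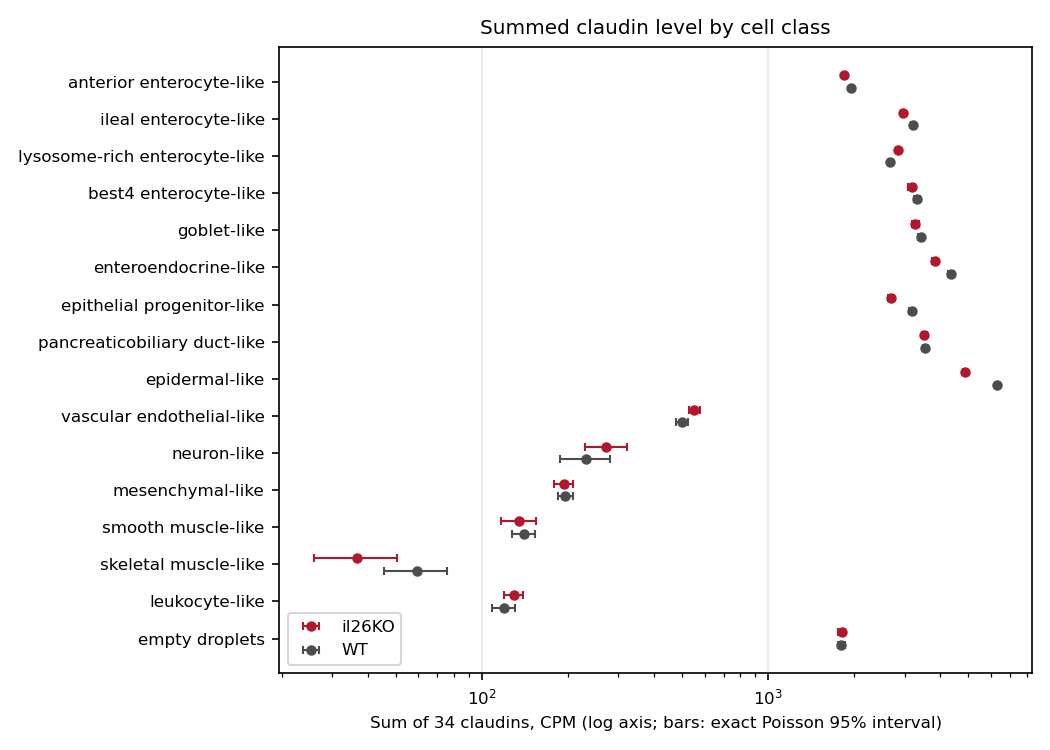
Summed level of the 34 claudins in CPM (log axis) in 15 cell classes and the empty droplets, il26KO in red above WT in grey, with exact Poisson 95% intervals. The gut epithelial, duct-like and epidermal-like classes lie at 1840.0 CPM or more in both libraries, the endothelial-like class at 553 CPM in il26KO and 501 CPM in WT, and the other classes at 272 CPM or less. The endothelial-like and these other classes lie below the empty droplets (1806 CPM in il26KO, 1803 CPM in WT). In il26KO the interval of the anterior enterocyte-like class (1827 to 1853 CPM) overlaps that of the empty droplets (1759 to 1855 CPM).

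Over all kept cells, 2 of 30 measured claudins were at least 2-fold higher in il26KO and 0 were 2-fold lower, where 6.81% of all measured genes passed 2-fold in either direction, 3.87% higher and 2.94% lower. They were cldni (20.3 CPM in il26KO, 6.06 CPM in WT, log2 1.74, interval 1.61 to 1.88) and cldn1 (2.73 CPM in il26KO, 1.04 CPM in WT, log2 1.38, interval 1.05 to 1.73), the claudin that mammals need for a tight epidermis. Both calls turned on the barcodes removed for a high doublet score. Of the 229 WT barcodes removed, 22 held 643 UMIs of cldni, or 51.6% of its WT UMIs in these and the kept barcodes together. The 126 il26KO barcodes removed held 81 UMIs, or 3.98% on the same basis. With these barcodes kept the log2 difference was 0.76 for cldni and 0.50 for cldn1, so that 0 claudins passed 2-fold. Summed over every barcode, cldni stood at 20.5 CPM in il26KO and 11.9 CPM in WT (log2 0.78).

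Lower in il26KO but short of 2-fold was cldnh (209.9 CPM in il26KO, 397 CPM in WT, log2 -0.92, interval -0.94 to -0.89). Epidermal-like cells gave 79.9% of its UMIs in il26KO and 88.6% in WT. Within that class the log2 difference was -0.022 in cluster 11 (3379 CPM in il26KO, 3431 CPM in WT), where cldnh was highest, -0.75 in cluster 8 (935 CPM in il26KO, 1569.6 CPM in WT) and -0.63 in cluster 12 (406 CPM in il26KO, 629.7 CPM in WT).

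Within the classes, 17 pairs of claudin and class were 2-fold higher in il26KO and 8 were 2-fold lower, of 179 measured, against 10.2% of all pairs of gene and class (5.79% higher and 4.38% lower). Gut epithelial classes had 12 of the 25, the epidermal-like class 7 and other classes 6. From 9 to 16 claudins were measured in each gut epithelial class, 23 in the epidermal-like class and 1 to 15 in each other class. Of all genes, 7.24 to 14.7% passed 2-fold in the gut epithelial classes, 12.9% in the epidermal-like class and 5.60 to 15.3% in the others. In ileal enterocyte-like cells cldnb was higher (78.1 CPM in il26KO, 34.9 CPM in WT, log2 1.16, interval 0.87 to 1.46), from 312 UMIs in 63 of 174 il26KO cells and 136 UMIs in 44 of 266 WT cells. It stayed past 2-fold under all 12 alternatives (other cell filters, doublets kept, other clusterings, another scaling, equal weight per cell, thinning, and the top cell left out), at 1.04 to 1.76, but both levels lay under those of the empty droplets (198 CPM in il26KO and 135 CPM in WT), which differed in the same direction. In best4 enterocyte-like cells cldnh was lower (15 UMIs in il26KO and 41 in WT, log2 -1.54), also past 2-fold under all 12. The minimum of 20 UMIs was not applied to these alternatives. Median depth in the best4 enterocyte-like class was 16779 UMIs in il26KO and 10658 in WT. The cldnh value after thinning to 1000 UMIs per cell (-1.19) can thus rest on very few UMIs and is no check of stability. In lysosome-rich enterocyte-like cells cldnh was lower too (222 UMIs in il26KO and 508 in WT, log2 -1.07), but was under 2-fold in 6 of 12 alternatives. Both cldnh levels were below the empty droplets (197 CPM in il26KO and 213 CPM in WT).

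In lysosome-rich enterocyte-like cells cldn23b (11.1 CPM in il26KO, 4.63 CPM in WT) had a log2 of 1.25, from 130 UMIs in 42 il26KO cells and 59 UMIs in 32 WT cells. It was past 2-fold in 11 of 12 alternatives, and 0.41 with every cell weighted equally. The WT level lay below that of the WT empty droplets (4.82 CPM). Other calls rested on few cells. In the same class cldni had 30 UMIs in il26KO and 0 in WT, at least 10.9-fold higher when set against 3 counts in the WT library, but 23 of the 30 lay in 1 cell. Progenitor-like cells, named from markers of undifferentiated gut cells, had 36 UMIs of cldn5a in il26KO, 33 of them in 1 cell, and 1 in WT. For cldni this class ran against the whole sample, with 48 UMIs in 5 il26KO cells and 169 UMIs in 5 WT cells (log2 -1.87, and -0.11 with every cell weighted equally). For cldn23b the log2 was 1.00, and it was under 2-fold in 9 of 12 alternatives. Its WT level there (6.73 CPM) did not lie above the WT empty droplets (interval 2.64 to 8.09 CPM). The more abundant claudins of the progenitor-like class besides cldn15la were cldnc (377 CPM in il26KO, 291 CPM in WT, log2 0.37) and cldn15lb (311 CPM in il26KO, 246 CPM in WT, log2 0.34).

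In the epidermal-like class 6 claudins were 2-fold higher and 1 was 2-fold lower in il26KO, of 23 measured, where 12.9% of all genes of the class passed 2-fold, 9.47% higher and 3.43% lower. The largest was cldni (159.6 CPM in il26KO, 17.3 CPM in WT, log2 3.20, interval 3.02 to 3.40). Nearly all of it lay in cluster 8, in 46 of 144 il26KO cells and 13 of 260 WT cells, and with the doublet-scored barcodes kept the class value was 1.60. Another was cldn1 (23.5 CPM in il26KO, 4.73 CPM in WT, log2 2.30), found in 37 of 436 il26KO and 12 of 595 WT cells, and 1.18 with those barcodes kept. These were past 2-fold under all 12 alternatives, but neither lay above the empty droplets in both libraries (18.7 CPM in il26KO and 14.5 CPM in WT for cldni, 1.96 CPM in il26KO and 3.44 CPM in WT for cldn1), here or in any other class. The cldn1 value after thinning (1.11) was read without the UMI minimum, can rest on few UMIs and is no check of stability. In cluster 8 alone cldni did lie above the empty droplets in both libraries (359.6 CPM in il26KO, 64.4 CPM in WT). The others were less stable: cldn15a (log2 1.80), cldna (log2 1.41) and cldnf (log2 1.00) became 0.87, 0.16 and -0.43 with every cell weighted equally. The level of cldn15a (25.1 CPM in il26KO, 7.17 CPM in WT) lay under that of the empty droplets (93.6 CPM in il26KO and 84.0 CPM in WT), and cldna and cldnf were above background in both libraries in no class. For cldn5a the log2 was 3.19, the largest after cldni, but there were 68 UMIs in 3 il26KO cells and 10 UMIs in 4 WT cells. Of the 68 UMIs, 55 lay in 1 cell, and the difference was under 2-fold in 3 of 12 alternatives.

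The claudin 2-fold lower in il26KO in this class was cldn15la (629 CPM in il26KO, 1336 CPM in WT, log2 -1.09, interval -1.13 to -1.05). It was lower in each of the clusters, most in cluster 8 (206 CPM in il26KO, 1112 CPM in WT), then cluster 11 (708 CPM in il26KO, 1286 CPM in WT), and least in cluster 12 (1276 CPM in il26KO, 1692 CPM in WT). The il26KO levels of the class, of cluster 8 and of cluster 11 lay below the il26KO empty droplets (827 CPM). A UMI was found in 45.1% of il26KO cells and 53.5% of WT cells of cluster 8. There the 9 anterior enterocyte markers summed to 2818 CPM in il26KO and 2988 CPM in WT and the 5 ileal enterocyte markers to 2049 CPM in il26KO and 1792 CPM in WT, with none of either list at 0 in il26KO or WT, and the epidermal markers to 97416 CPM in il26KO and 138257 CPM in WT. The 8 lysosome-rich enterocyte markers summed to 171 CPM in il26KO and 286 CPM in WT, with none at 0. Of the 9 goblet markers 7 were found, summing to 3697 CPM in il26KO and 1714 CPM in WT, with 2 of the 7 at 0 in il26KO and 1 in WT. The 5 cloacal epithelium markers summed to 21.3 CPM in il26KO and 9.79 CPM in WT, with none at 0 in il26KO and 2 at 0 in WT. The part of these markers in the result was not tested. The class value was -0.63 with every cell weighted equally and -0.56 after thinning, both under 2-fold. In cluster 8 the paralog cldn15lb was lower as well (29.9 CPM in il26KO, 112 CPM in WT, log2 -1.90). Both of its levels lay under the empty droplets (157 CPM in il26KO and 125 CPM in WT). Over the whole class its share of the pair was larger in il26KO (33.0% in il26KO against 25.1% in WT).

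**Figure D5:**
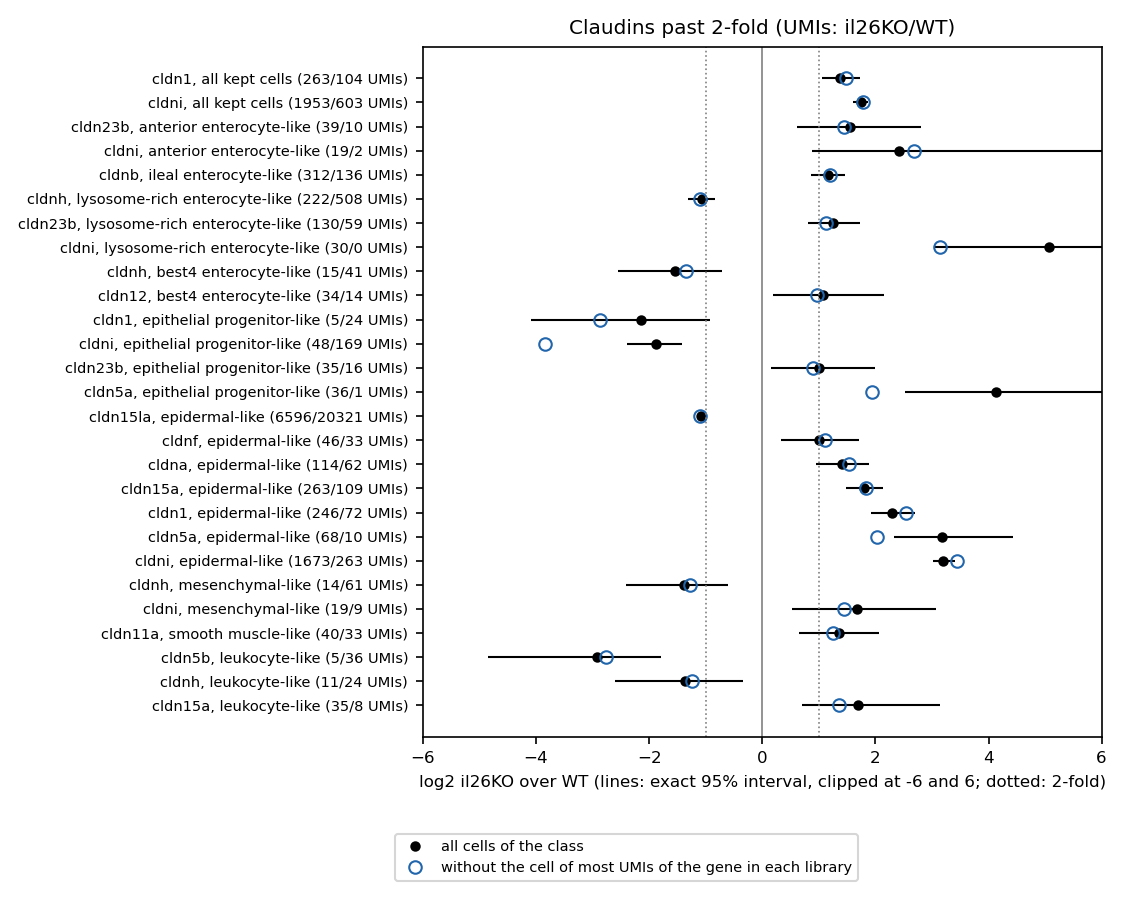
log2 of il26KO over WT for the 2 claudins past 2-fold over all kept cells and the 25 pairs of claudin and class past it, with 1 UMI added to each count, exact 95% intervals as lines and UMIs in il26KO and WT in brackets. Open circles leave out the cell with the most UMIs of that gene in each library; for cldn5a in progenitor-like cells the open circle lies at 1.94 and the filled point at 4.13, and the point for cldni in lysosome-rich enterocyte-like cells, with 0 UMIs in WT, depends on the added count.

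In the other classes the pairs past 2-fold with at least 50 UMIs were cldn11a in smooth muscle-like cells (25.8 CPM in il26KO, 10.1 CPM in WT, log2 1.35) and cldnh in mesenchymal-like cells (14 UMIs in il26KO and 61 in WT, log2 -1.38), the second far below the empty droplets. The cldn11a difference was under 2-fold in 3 of 12 alternatives, at 0.70 with every cell weighted equally. That of cldnh was under 2-fold in 2 of 12. A further 10 of the 25 pairs had fewer than 50 UMIs. None of the 12 claudins measured in goblet-like, 11 in enteroendocrine-like, 3 in neuron-like and 1 in skeletal muscle-like cells passed 2-fold, where 14.7%, 9.48%, 13.2% and 15.3% of all genes measured in those classes did.

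Some claudins lie next to each other in the genome. In the RefSeq annotation of assembly GRCz12tu, where 33 of the 34 were found, 4 of them under another name, cldnh, cldnc and cldnb are neighbours on chromosome 21, and cldnj, cldne, cldnf and cldna on chromosome 15. Of the 6 with a neighbour that also had at least 20 UMIs, 6 were highest in the epidermal-like class, and of the other 24 measured claudins 5 were. Among the 6, cldna and cldnf were above background in no class, as were cldni and cldn1 among the 5. Among the 18 claudins with at least 500 UMIs, over the 15 classes, the levels of cldnb and cldnc ranked most alike (Spearman's rho 0.94), while cldn15la and cldn15lb, which lie on different chromosomes, had a rho of 0.89. The classes share 2 libraries and their free RNA, so these values only describe the profiles. How the counting treated reads that fit more than 1 claudin copy was not tested.

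Other junction genes were read from a list of 39, of which 37 were found, among them the scaffold proteins that anchor claudins, the occludin relatives and the cadherins. By class, epcam (1876 CPM in il26KO, 1814 CPM in WT) and cdh1 (941 CPM in il26KO, 932 CPM in WT), the epithelial cadherin, were the highest of the list in duct-like cells, beside the cldn7b there. The endothelial cadherin cdh5 (949 CPM in il26KO, 1055 CPM in WT) and the junctional adhesion gene jam2a (450.1 CPM in il26KO, 548 CPM in WT) led in the endothelial-like cells that held cldn5b. The marker list that named this class includes cdh5, so its high level there was partly set by the naming. In anterior enterocyte-like cells cdh17, a cadherin of the gut, led the list (389.5 CPM in il26KO, 331 CPM in WT). Over all kept cells 0 of the 37 listed genes measured were 2-fold higher in il26KO, where 3.87% of all measured genes were. Of the 37, 1 was 2-fold lower, where 2.94% of all measured genes were. It was the occludin gene oclnb (4.09 CPM in il26KO, 8.71 CPM in WT, log2 -1.09). Within classes 16 pairs were 2-fold higher and 9 lower, of 371 measured, against the 10.2% of all pairs of gene and class (5.79% higher and 4.38% lower). The pairs with the most UMIs were epcam in anterior enterocyte-like cells (51.6 CPM in il26KO, 17.9 CPM in WT, log2 1.53) and in ileal enterocyte-like cells (299.7 CPM in il26KO, 122 CPM in WT, log2 1.29). The scaffold gene tjp1b was past 2-fold in the same direction in anterior enterocyte-like (log2 1.33), goblet-like (log2 1.57) and ileal enterocyte-like cells (log2 1.06). These epcam and tjp1b values are given without the empty droplets beside them, and the part of free RNA in them was not tested. The alternatives were run for the claudins only.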

How the data were processed

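Counts of unique molecular identifiers per gene and barcode were deposited by the authors as unfiltered matrices, with 27771 features and no normalization; the submitters' processing notes name Cell Ranger 7.1.0 and danRer11. The il26KO library held 122200924 UMIs and the WT library 125236138, of which 78.9% and 79.5% lay in the cells kept here. A barcode was kept as a cell if it had 500 or more detected genes and no more than 25% of its UMIs were mitochondrial. Scrublet, run in scanpy 1.11.5, set a threshold that marked 1 doublet per library, so the barcodes with the highest scores were removed instead at 0.8% per 1000 cells, 126 in il26KO and 229 in WT. Libraries were integrated in Seurat 5.3.0 (2000 variable genes, 30 dimensions, resolution 0.8) without claudin, other junction, mitochondrial or cell cycle genes or il26, and clusters were named from 19 marker lists with at least 3 markers, 1 cluster remaining unnamed. Classes rebuilt in this way may differ from those of the study.

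UMIs were summed per class and library. A ratio was read with at least 20 UMIs over both libraries, and 1 UMI was added to each count. Poisson, Clopper-Pearson and conditional binomial 95% intervals were computed with scipy 1.17.1; with 1 library per group no test was run. The method was checked on simulated counts. Members named in the text are the 3 highest of each class, those past 2-fold with at least 50 UMIs, cldn15la, cldn5a and cldn5b; other members were named after their values were seen. The members, gene lists and alternatives were chosen with earlier results of these data known.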

Additional observations from a re-analysis of the deposited data

How the results depend on the processing

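No paired analysis was possible because each group has 1 library. The family sum over all kept cells (log2 -0.23) became -0.21 with at least 300 detected genes and with doublets kept, -0.25 with at most 10% mitochondrial UMIs and with median-of-ratios scaling, -0.027 with equal weight per cell and -0.046 after thinning. In anterior enterocyte-like cells (-0.081) it was -0.030, -0.064, -0.11, -0.066, -0.065 and -0.28 with at least 300 genes, at least 1000 genes, at most 10% mitochondrial UMIs, doublets kept, libraries merged without integration and median-of-ratios scaling, and it turned to 0.030 with equal weight per cell and 0.053 after thinning. In progenitor-like cells (-0.24) it was -0.31 with at most 10% mitochondrial UMIs, -0.30 with cell cycle genes in the clustering, -0.33 with median-of-ratios scaling and -0.11 after thinning. In ileal enterocyte-like cells (-0.12) it was -0.16 with merged libraries, -0.19 with median-of-ratios scaling, -0.078 with equal weight and -0.21 after thinning. In lysosome-rich enterocyte-like cells (0.088) it was 0.025, 0.013, 0.026 and 0.057 with at least 1000 genes, at most 10% mitochondrial UMIs, doublets kept and cell cycle genes in the clustering, and 0.035, 0.057 and 0.036 with median-of-ratios scaling, equal weight and thinning. The causes were not tested.

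Over all kept cells the 2 claudins past 2-fold became 1 with at least 300 detected genes, 0 with doublets kept and 4 with equal weight. The 25 pairs within classes became 9 with a minimum of 100 UMIs and 125 with no minimum, both by construction of the minimum. They became 9 after thinning, where the minimum of 20 UMIs was applied to the thinned counts, so fewer pairs could be read. The part of the minimum in that fall was not tested. Of 204 values of the 17 named differences past 2-fold under their alternatives, 163 stayed past 2-fold, 39 kept the direction under it and 2 turned, both cldnf in epidermal-like cells (-0.43 with equal weight and -0.47 after thinning). The minimum of 20 UMIs was not applied to these 204 values. After thinning some, such as that of cldnf, can rest on very few UMIs with 1 added to each count. Values of that kind are no check of stability in either direction. Leaving out the cell with the most UMIs of a gene was an alternative chosen after seeing the data. Between 64 and 70 pairs of claudin and class lay above the empty droplets under 7 alternatives. Depth limits the members under 20 UMIs, where no level could be read, and the classes of few cells, such as the 18 skeletal muscle-like cells of il26KO against 50 in WT.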
